A study of Rattus norvegicus with 34 samples.

Results

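The livers of rats given monuron, a phenylurea herbicide that blocks photosystem II in plants, were compared with the livers of vehicle-dosed rats across all genes of an Affymetrix rat array. The arrays were chosen by their titles, and 8 of the 34 arrays of the series were liver arrays. Of these, 4 were labelled as liver from monuron-exposed rats and 4 as liver from control-exposed rats. The monuron animals had received 40 mg/kg body weight on day 1 and 400 mg/kg on days 2 and 3, in corn oil at 5 ml/kg. The control animals had received corn oil alone at 5 ml/kg. All were male Wistar-derived rats, aged 7 to 9 weeks and weighing 190 to 240 g. The labels give the treatment as 72 h, and the protocol places death at that interval after the last dose. Of the other arrays, 8 came from kidneys labelled in the same way and the rest from a rat kidney cell line. The labels number the replicates as biological but do not say which liver and kidney came from the same rat.

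Hepatocytes meet foreign compounds with enzymes that work in sequence. Cytochrome P450 enzymes oxidise the compound, epoxide hydrolase, aldehyde dehydrogenases and aldo-keto reductases deal with reactive products, and transferases attach glutathione, glucuronate or sulfate. The genes for these enzymes answer to a small set of sensors. The aryl hydrocarbon receptor (AhR) controls Cyp1a1, the receptors CAR and PXR control many P450 and transferase genes, and NRF2 controls antioxidant genes through the antioxidant response element. The liver also runs fatty acid oxidation under PPARα, lipid synthesis under SREBP factors, and male-typical programmes set by pulses of growth hormone.

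The directions below follow the labels as deposited, and whether the labels name the exposed animals was not tested. Several genes that foreign compounds can induce, among them Cyp1a1, Nqo1 and Gsta3, were lower in the livers labelled monuron, while no P450 gene of families 2, 3 and 4 was called, as given below. In the kidneys, Havcr1, which encodes the kidney injury marker KIM-1, had log2 values of 2.05, 2.01, 2.03 and 2.02 in the 4 arrays labelled monuron, against 8.11, 5.98, 7.23 and 6.62 in the 4 labelled control. The 2 sets of kidneys did not overlap, and the higher set was the one labelled control. Every signed difference in liver would turn round if the labels were exchanged. In the livers Havcr1 was at the array's low end, with means of 2.07 in livers labelled monuron and 2.06 in livers labelled control.

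Expression values were the authors' deposited log2 GCRMA values, so a difference of 1 is a 2-fold difference. The organ label held in all 8 arrays. All 14 measured hepatocyte markers lay above their array's median on every array, and their summed log2 level was 19.11 to 19.14 in livers labelled monuron and 19.12 to 19.14 in livers labelled control. Pairs of arrays correlated at 0.982 to 0.988 within the livers labelled monuron, at 0.982 to 0.990 within those labelled control and at 0.975 to 0.985 between the groups, over the genes tested. On the first principal component the arrays labelled monuron scored 10.2 to 24.6 and those labelled control -27.8 to -2.47. On the second component 1 array labelled monuron, replicate 4, stood apart at -28.2.

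The comparison asked which liver genes differed between dosed and vehicle animals. With limma's moderated test on log2 values and Benjamini-Hochberg adjustment, 292 of 9361 genes tested (3.12%) passed an adjusted p of 0.05, and a gene that passed is called here. Of these, 103 (1.1%) were higher in the livers labelled monuron and 189 (2.02%) were lower. At least 2-fold differences were found for 48 called genes (0.513% of those tested), 21 higher and 27 lower. The groups did not overlap for 291 of the called genes, against 1316 of all genes tested (14.1%); the exception was Egfr, the epidermal growth factor receptor. Over all genes tested the median difference was -0.07, and 38.8% of differences were above 0. An unadjusted p below 0.05 was found for 2244 of the 9361 genes tested.

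The count of called genes depended on single arrays. It was 37 without replicate 1 of the livers labelled monuron, 147 without replicate 2, 66 without replicate 3 and 318 without replicate 4. It was 40, 57, 508 and 53 without replicates 1, 2, 3 and 4 of the livers labelled control. A set of 29 genes was called with all 8 arrays and in each of these 8 fits. It included Aldh1a1, Akr7a3, Ephx1, Gpx2, Gsta3, Gsta4, Gstm1, Gstt1, Gstt3 and Ugt2b1 among the detoxification genes, all lower, and C6, Fabp5 and Tmem163 among the genes that were higher.

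**Figure D1:**
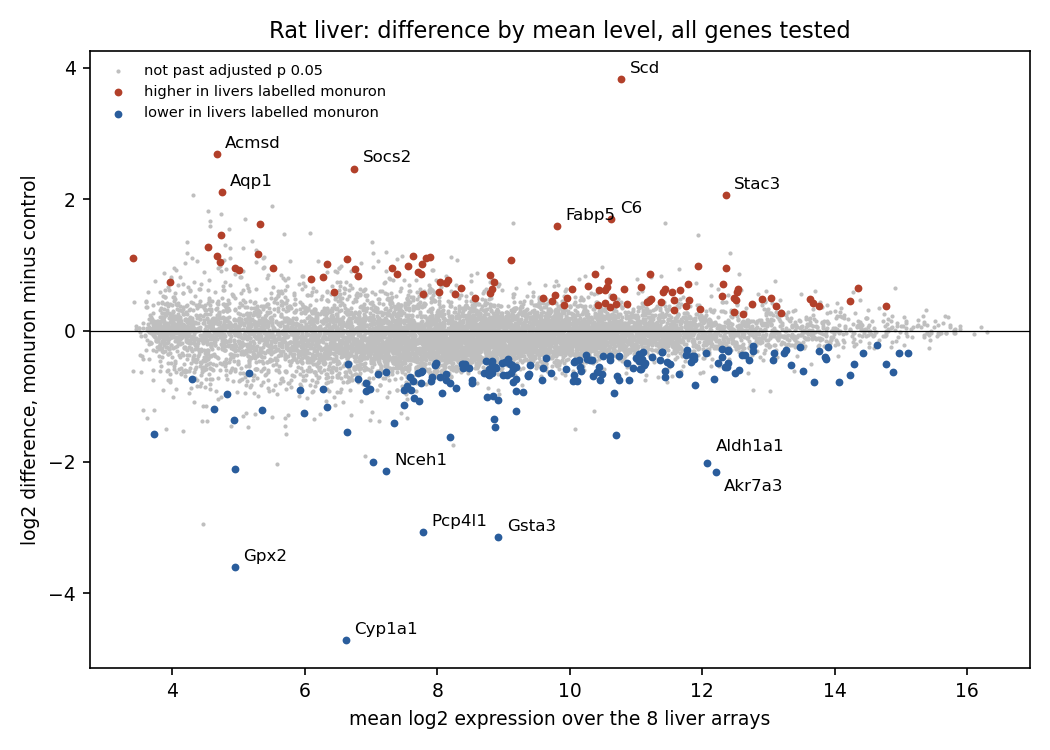
Log2 difference (livers labelled monuron minus livers labelled control, n = 4 each) against the mean log2 level over the 8 arrays, 1 point per gene tested. Coloured points are the 103 genes called higher and the 189 called lower. Cyp1a1, Gpx2, Gsta3 and Pcp4l1 lie lowest and Scd lies highest.

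The promoters of 4 antioxidant genes that fell are shown because they carry matches to the core of the antioxidant response element. Each is 300 bases in RefSeq's GRCr8 assembly, from 250 before to 50 after an annotated start, written 5′ to 3′ in the direction of the gene, with the match in capitals. The motif searched was TGACNNNGC on both strands. The 4 were picked after their values were seen.
Gpx2, chr6:101229984-101230283, minus strand: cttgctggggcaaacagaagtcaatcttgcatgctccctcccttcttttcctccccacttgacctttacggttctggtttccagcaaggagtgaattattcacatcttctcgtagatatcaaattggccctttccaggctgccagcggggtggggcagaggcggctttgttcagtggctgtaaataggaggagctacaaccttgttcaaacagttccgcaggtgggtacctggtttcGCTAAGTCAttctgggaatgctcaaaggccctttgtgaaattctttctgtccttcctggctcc
Gsta3, chr9:31154739-31155038, plus strand: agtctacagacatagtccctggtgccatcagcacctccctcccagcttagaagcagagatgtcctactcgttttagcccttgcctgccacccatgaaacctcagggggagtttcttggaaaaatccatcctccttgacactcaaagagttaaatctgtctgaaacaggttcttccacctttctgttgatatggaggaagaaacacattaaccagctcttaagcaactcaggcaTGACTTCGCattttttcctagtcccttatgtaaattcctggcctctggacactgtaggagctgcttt
Ephx1, chr13:95263068-95263367, minus strand: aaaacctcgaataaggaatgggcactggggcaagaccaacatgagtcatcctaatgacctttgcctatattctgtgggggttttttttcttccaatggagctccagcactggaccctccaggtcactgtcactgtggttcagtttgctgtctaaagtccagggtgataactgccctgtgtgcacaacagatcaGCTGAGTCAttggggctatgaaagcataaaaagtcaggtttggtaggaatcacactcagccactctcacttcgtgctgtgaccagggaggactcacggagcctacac
Gstp1, chr1:210769656-210769955, minus strand: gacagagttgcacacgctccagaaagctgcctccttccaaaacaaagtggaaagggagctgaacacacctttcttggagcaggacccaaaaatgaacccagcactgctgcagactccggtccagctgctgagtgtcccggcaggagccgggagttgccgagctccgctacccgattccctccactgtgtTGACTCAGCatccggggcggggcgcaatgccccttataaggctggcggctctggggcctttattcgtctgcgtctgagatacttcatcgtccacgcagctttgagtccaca
The match began at position -13 from the start in Gpx2, at -17 in Gsta3, at -57 in Ephx1 and at -61 in Gstp1. In Gpx2 and Ephx1 it is on the opposite strand, so it reads as its reverse complement. Ephx1 and Gsta3 each have another annotated start, and that promoter held no match. Of the 13 promoters of the 10 fallen NRF2 list genes, 5 (38.5%) held the motif, Txnrd1 being the fifth gene, against 4038 of all 33469 promoters in the table (12.1%). Of the 28 promoters of all NRF2 list genes on the array 9 (32.1%) held it, so the share in the fallen genes is close to that of the whole list. The motif GCGTG, the core of AhR binding sites, was in 8 of the 13 (61.5%), in 16 of the 28 (57.1%) and in 29.7% of all promoters. The promoters of Nqo1, Gclc, Srxn1, Akr7a3 and Txn1 held no TGACNNNGC match in this window.

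The antioxidant genes that passed the test were all lower. Of 26 tested genes of the NRF2 list, 10 fell in the livers labelled monuron and none rose, against 2.02% and 1.1% of all genes tested. The median difference of the list was -0.49, against -0.07 over all genes, and 25 of the 26 differences were below 0. Without any 1 array, between 4 and 9 members fell. The lowest count was 4, without replicate 1 of either group, and it was 5 without replicate 3 of the livers labelled monuron and 6 without replicate 2 or 4 of the livers labelled control.

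Gpx2, a glutathione peroxidase that reduces peroxides, had log2 levels of 2.27, 3.99, 3.16 and 3.14 in livers labelled monuron, against 7.45, 5.71, 6.68 and 7.14 in livers labelled control. The groups lay far apart. The difference was -3.60 ± 0.43 (SE, adjusted p = 0.00868, limma). On 3 arrays labelled monuron Gpx2 was below the array's median, and with values limited at that median the difference was -2.94. Srxn1, sulfiredoxin, which repairs oxidised peroxiredoxins, had levels of 7.08, 7.38, 7.03 and 8.05 in livers labelled monuron, against 8.75, 9.31, 9.30 and 8.64 in livers labelled control. It was lower on all 4 arrays, by 3.06-fold (adjusted p = 0.0197, limma). Nqo1, a quinone reductase, had levels of 9.58, 10.82, 9.93 and 9.28 in livers labelled monuron, against 11.17, 10.99, 11.63 and 12.17 in livers labelled control. Here the highest array of the first group came within 0.2 of the lowest of the second. The difference was -1.59 ± 0.35 (adjusted p = 0.0466, limma).

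Gclc, the catalytic subunit of the enzyme that limits glutathione synthesis, averaged 10.20 ± 0.21 in livers labelled monuron and 11.14 ± 0.25 in livers labelled control (SD, n = 4 each). Txnrd1, thioredoxin reductase, averaged 10.51 ± 0.28 in livers labelled monuron and 11.26 ± 0.12 in livers labelled control (adjusted p = 0.0285, limma). A second probe set of Txnrd1 gave a difference of -0.16, against -0.75 for the probe set used. Gstp1, a pi-class glutathione transferase, fell by 0.73 (adjusted p = 0.0286, limma). Hmox1, haem oxygenase, did not pass and averaged 8.57 ± 0.31 in livers labelled monuron and 8.67 ± 0.13 in livers labelled control (adjusted p = 0.735, limma). Of the genes named here, Gpx2 stayed called without any 1 array. Srxn1 lost its call without monuron replicates 1 or 3 or control replicates 1 or 2. Nqo1 kept it only without monuron replicate 2, and Txnrd1 only without monuron replicate 4 or control replicate 3. Gclc lost it without replicate 1 of either group.

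The conjugating enzymes followed the same direction. Of 34 tested genes for glutathione, glucuronate, sulfate and methyl transferases, 9 fell and 1 rose, with a median difference of -0.24. The share called was 29.4%, against 3.12% of all genes tested. Between 6 and 10 fell without any 1 array. The lowest count was 6, without replicate 1 of either group or replicate 4 of the livers labelled control. The members that fell were the glutathione transferase genes Gsta3, Gsta4, Gstm1, Gstp1, Gstt1, Gstt2, Gstt3 and Gsto1, and the glucuronosyltransferase gene Ugt2b1. Members of these families are close in sequence, so probe sets of related genes may share signal.

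Gsta3, an alpha-class glutathione transferase, had levels of 7.53, 7.61, 6.98 and 7.30 in livers labelled monuron, against 10.24, 9.81, 10.96 and 10.97 in livers labelled control. All arrays of the first group lay more than 2 log2 units under all of the second. The difference was -3.14 ± 0.27 (adjusted p = 0.00156, limma), an 8.82-fold lower level. The other transferases that fell differed by less. Gstm1, a mu-class transferase, averaged 14.56 ± 0.13 in livers labelled monuron and 15.20 ± 0.10 in livers labelled control (adjusted p = 0.00868, limma). Gstt3, a theta-class transferase, averaged 13.89 ± 0.02 in livers labelled monuron and 14.57 ± 0.14 in livers labelled control (adjusted p = 0.00608, limma). Gstt1 fell by 0.70, Gsta4 by 0.53 and Ugt2b1 by 0.78. These small differences exceeded the spread between animals. The 5 genes and Gsta3 stayed called without any 1 array. The member that rose was Nnmt, nicotinamide N-methyltransferase, at 12.30, 12.22, 11.83 and 12.20 in livers labelled monuron, against 11.40, 11.31, 11.51 and 11.49 in livers labelled control (adjusted p = 0.0166, limma). Nnmt lost its call without replicate 1 of either group or replicate 2 of the livers labelled control, with adjusted p up to 0.0635.

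**Figure D2:**
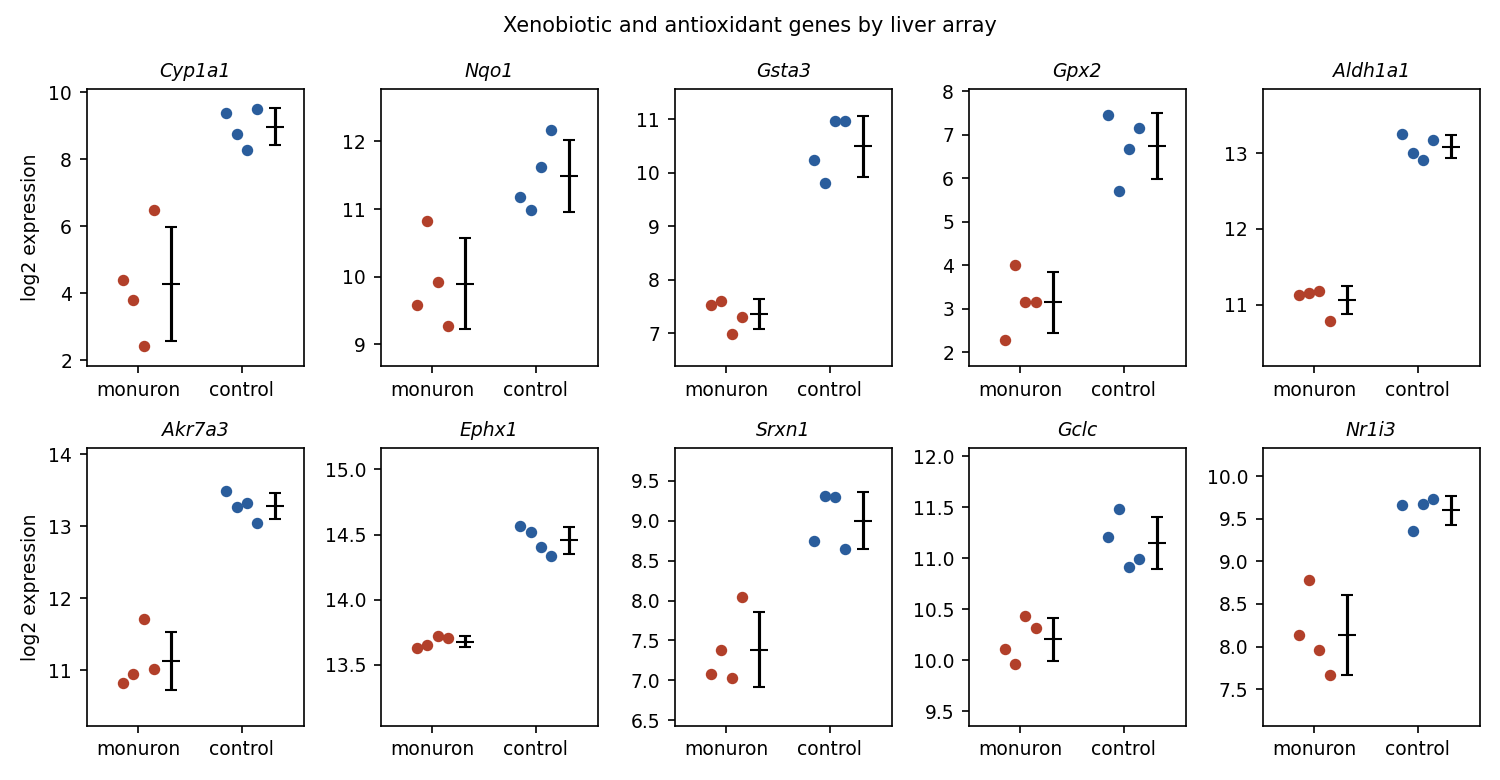
Log2 expression of 10 xenobiotic and antioxidant genes in each liver array, monuron label on the left and control label on the right (n = 4 each). Points are arrays, and the bar beside them is the mean with 1 SD; axes differ between genes and do not start at 0. In all 10 genes every array labelled monuron lies below every array labelled control. The 10 were chosen from the called genes, of which 291 of 292 did not overlap, against 14.1% of all genes tested.

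The enzymes for reactive aldehydes, carbonyls and epoxides that passed the test were all lower. Of 39 tested members, 6 (15.4%, against 2.02% of all genes tested) fell and none rose (median -0.19). Of the 39 differences 12 were above 0, the highest 1.05. Without any 1 array 3 to 5 fell. The count was 3 without monuron replicate 1 or 3, or without control replicate 1, 2 or 4. Aldh1a1, which oxidises retinal and lipid aldehydes, had levels of 11.13, 11.16, 11.19 and 10.79 in livers labelled monuron, against 12.91 to 13.25 in the 4 livers labelled control. It had the smallest adjusted p of the liver comparison (0.00012, limma), with a difference of -2.02 ± 0.11. Akr7a3, which reduces aflatoxin dialdehyde, had levels of 10.83, 10.95, 11.72 and 11.02 in livers labelled monuron, against 13.49, 13.26, 13.33 and 13.05 in livers labelled control (difference -2.15 ± 0.18, adjusted p = 0.00156, limma). The 2 sets of arrays did not overlap, and the SD of Akr7a3 was 0.40 in livers labelled monuron and 0.18 in livers labelled control. Its relative Akr7a2 fell by 0.56. Ephx1, microsomal epoxide hydrolase, averaged 13.68 ± 0.04 in livers labelled monuron and 14.45 ± 0.10 in livers labelled control (adjusted p = 0.00156, limma). Adh1c, an alcohol dehydrogenase, fell by 0.51 (adjusted p = 0.0366, limma) and lost its call in 6 of the 8 fits without 1 array. The remaining member that fell was Akr1a1, aldehyde reductase, by 0.24.

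Cyp1a1, the classic AhR target, had the largest difference of all called genes. Its levels were 4.38, 3.79, 2.42 and 6.49 in livers labelled monuron, against 9.37, 8.75, 8.29 and 9.50 in livers labelled control. The first group was scattered over 4 log2 units, and the second was narrow and higher. The difference was -4.71 ± 0.73 (adjusted p = 0.0196, limma), a 26.1-fold lower level, and 1 array of the livers labelled monuron lay below the array's median. The call was lost without monuron replicate 1 or control replicates 1, 2 or 4, with adjusted p up to 0.0728. Of the other AhR targets only Nqo1 passed. Cyp1a2, the abundant liver member of the family, averaged 14.40 ± 0.32 in livers labelled monuron and 14.65 ± 0.15 in livers labelled control (adjusted p = 0.322, limma). Tiparp, a feedback repressor of the receptor, averaged 8.72 ± 0.30 in livers labelled monuron and 8.07 ± 0.65 in livers labelled control (adjusted p = 0.222, limma). Of 7 tested AhR targets, Cyp1a1 and Nqo1 were called (28.6%, against 3.12% of all genes tested). Between 0 and 2 fell without any 1 array. None fell without replicate 1 of either group or without replicate 2 or 4 of the livers labelled control, and 1 fell without replicate 3 or 4 of the livers labelled monuron or replicate 3 of the livers labelled control, where 1 also rose.

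Of 22 tested CAR and PXR targets, 4 or 5 fell without any 1 array. With all arrays 5 (22.7%, against 2.02% of all genes tested) fell and none rose (median -0.29). These were Nr1i3, which encodes CAR itself, and Ephx1, Aldh1a1, Ugt2b1 and Gsta3. All but Nr1i3 are also counted in lists above. Ephx1 and Gsta3 are in the NRF2 list, Ephx1 and Aldh1a1 in the aldehyde and epoxide list, and Gsta3 and Ugt2b1 among the conjugating enzymes. Nqo1, Gstp1 and Akr7a3 are likewise in several lists, so the shares of these lists are not separate results. Nr1i3 had levels of 8.14, 8.78, 7.96 and 7.67 in livers labelled monuron, against 9.66, 9.35, 9.67 and 9.73 in livers labelled control. All arrays of the first group were lower, by 2.76-fold on average (adjusted p = 0.0166, limma), and the call was lost without monuron replicate 1 or 3 or control replicate 1 or 4. The drug-metabolising P450s did not follow. Of 34 tested members of families 2, 3 and 4, none was called by limma, and the median difference was -0.0013. An unadjusted p below 0.05 was found for 8, against 2244 of all 9361 genes tested. Cyp3a23-3a1, the main PXR-inducible P450 of the rat, averaged 14.77 ± 0.19 in livers labelled monuron and 14.94 ± 0.04 in livers labelled control. Cyp2e1, the ethanol-inducible P450, averaged 15.29 ± 0.09 in livers labelled monuron and 15.55 ± 0.07 in livers labelled control (adjusted p = 0.0536, limma). Cyp2c11, the male-specific P450, averaged 15.14 ± 0.13 in livers labelled monuron and 15.00 ± 0.07 in livers labelled control.

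**Figure D3:**
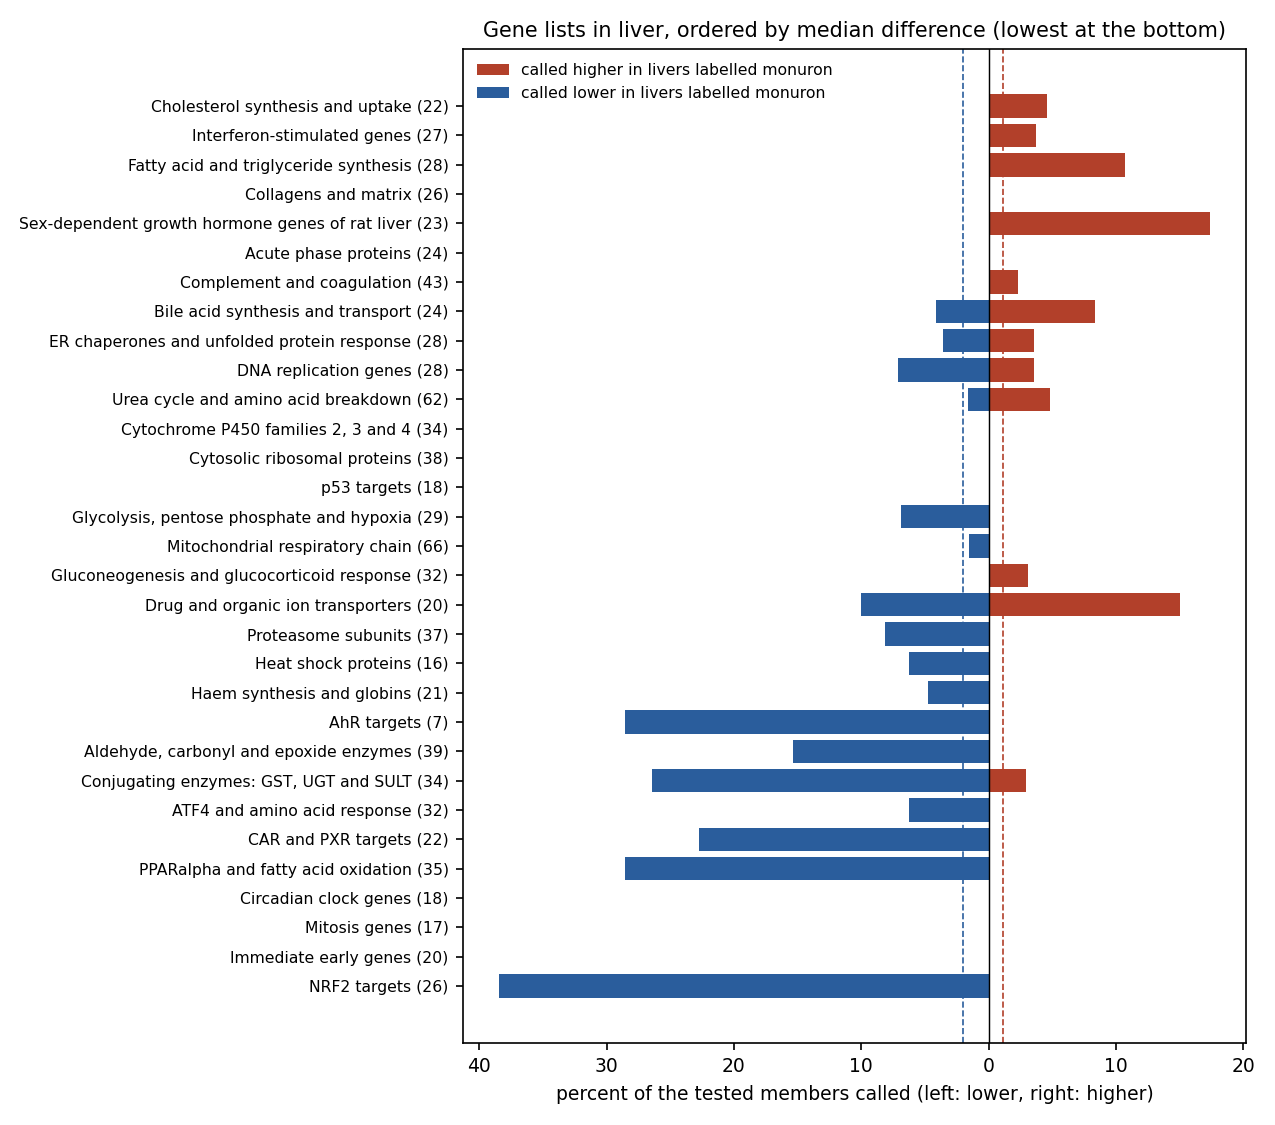
Percent of the tested members of each gene list that were called, lower in livers labelled monuron to the left and higher to the right, with the number tested in brackets. Lists run by median difference from the lowest (NRF2 targets) at the bottom, and dashed lines are the shares of all genes called lower (2.02%) and higher (1.1%). The AhR list rests on 7 tested genes, and some genes are counted in several lists.

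The fatty acid oxidation genes that passed the test were all lower. Of 35 tested PPARα targets and oxidation genes, 10 (28.6%, against 2.02% of all genes tested) fell and none rose. The median difference was -0.29. The members that fell were Cpt2, Vnn1, Acot2, Acot4, Pex11a, Decr1, Decr2, Slc25a20, Ech1 and Crat. They span carnitine transfer (Crat, Cpt2, Slc25a20), the auxiliary steps for unsaturated fatty acids (Ech1, Decr1, Decr2), acyl-CoA thioesterases (Acot2, Acot4), peroxisome division (Pex11a) and the pantetheinase Vnn1. Crat, carnitine acetyltransferase, had levels of 5.75, 6.07, 5.63 and 6.03 in livers labelled monuron, against 8.02, 7.44, 7.17 and 7.03 in livers labelled control. The groups were separated by almost 1 log2 unit. The difference was -1.55 ± 0.22 (adjusted p = 0.0147, limma). Vnn1 averaged 8.18 ± 0.37 in livers labelled monuron and 9.53 ± 0.35 in livers labelled control. Acot4 averaged 8.34 ± 0.29 in livers labelled monuron and 9.34 ± 0.14 in livers labelled control. Ech1 fell by 0.82, Decr1 by 0.61, Pex11a by 0.95 and Slc25a20 by 0.49. The list's count depended on single arrays. None fell without replicate 1 of the livers labelled monuron, and 1, 2 and 4 fell without replicates 2, 1 and 4 of the livers labelled control. Without replicates 2, 3 and 4 of the livers labelled monuron the counts were 6, 5 and 7, and without replicate 3 of the livers labelled control it was 11.

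Fgf21, a fasting hormone of the liver and a PPARα target, did not pass. Its levels were 2.59, 3.15, 3.86 and 2.38 in livers labelled monuron, against 6.91, 7.07, 2.82 and 6.96 in livers labelled control (adjusted p = 0.0985, limma). Of the livers labelled control, 3 were high, and replicate 3 lay within the range of the other group.

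Of 28 tested genes of fatty acid and triglyceride synthesis, 3 (10.7%, against 1.1% of all genes tested) rose and none fell. Of the 28 differences 16 were above 0 and 12 below, with a median of 0.20. Scd, stearoyl-CoA desaturase, which makes monounsaturated fatty acids, had the largest rise of all called genes. Its levels were 12.11, 14.43, 12.24 and 12.01 in livers labelled monuron, against 9.46, 9.30, 7.11 and 9.59 in livers labelled control. In each group 3 arrays agreed closely, with replicate 2 of the livers labelled monuron above them and replicate 3 of the livers labelled control below. The difference was 3.83 ± 0.67 (adjusted p = 0.0264, limma), a 14.2-fold higher level. Acly, which makes cytosolic acetyl-CoA, averaged 12.81 ± 0.13 in livers labelled monuron and 12.23 ± 0.23 in livers labelled control (adjusted p = 0.0396, limma). Thrsp, Spot 14, a regulator of lipogenesis, averaged 14.68 ± 0.25 in livers labelled monuron and 14.02 ± 0.23 in livers labelled control (adjusted p = 0.0465, limma). Fasn, fatty acid synthase, had a difference of 0.97 ± 0.31 (adjusted p = 0.112, limma), and Elovl6, an elongase, of 0.95 ± 0.25 (adjusted p = 0.0721, limma).

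Of 22 tested cholesterol genes, Insig1 rose (4.55%, against 1.1% of all genes tested) and none fell. In this list 17 differences were above 0 (median 0.31). Insig1, the sterol-sensing brake on SREBP processing, had levels of 13.30, 12.61, 12.62 and 12.78 in livers labelled monuron, against 11.57, 12.33, 11.88 and 11.73 in livers labelled control. The groups did not overlap (adjusted p = 0.0396, limma). These calls depended on single arrays. Scd kept its call only without monuron replicates 2 or 4 or control replicate 3, and Thrsp lost it in each of the 8 fits, with adjusted p up to 0.134. Acly kept it only without monuron replicate 4 or control replicate 2 or 3, and Insig1 only without control replicate 2 or 3. No gene of the fatty acid list rose without monuron replicate 1 or 3 or control replicate 1 or 4, 1 did without monuron replicate 2 or control replicate 2, and 2 rose and 2 fell without control replicate 3.

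Genes of the growth hormone axis were among those that rose. Of 23 tested sex-dependent growth hormone genes, Stac3, Socs2, Igf1 and Ghr rose (17.4%, against 1.1% of all genes tested) and none fell. The median difference was 0.14. Socs2, the feedback inhibitor induced by growth hormone through STAT5, had levels of 7.41, 8.54, 8.26 and 7.72 in livers labelled monuron, against 4.56, 4.95, 6.63 and 5.93 in livers labelled control. Every array of the first group was above every array of the second, whose own spread was wide. The difference was 2.47 ± 0.44 (adjusted p = 0.0285, limma). Stac3, placed in the list as a male-typical liver transcript, had levels of 13.65, 13.76, 13.40 and 12.74 in livers labelled monuron, against 11.13, 10.61, 11.90 and 11.65 in livers labelled control. The difference was 2.06 ± 0.30 (adjusted p = 0.0149, limma). Ghr, the growth hormone receptor, averaged 13.87 ± 0.09 in livers labelled monuron and 13.39 ± 0.09 in livers labelled control (adjusted p = 0.0136, limma). Igf1, the main circulating growth factor made under its control, averaged 14.97 ± 0.13 in livers labelled monuron and 14.58 ± 0.05 in livers labelled control (adjusted p = 0.0285, limma).

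All 4 of these calls were lost without replicate 1 of the livers labelled monuron, with adjusted p of 0.0667 for Socs2, 0.0559 for Stac3, 0.0723 for Igf1 and 0.0504 for Ghr. Without replicate 1 of the livers labelled control only Ghr stayed called. The list's count was 2 without monuron replicate 3 or control replicate 2 or 4.

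**Figure D4:**
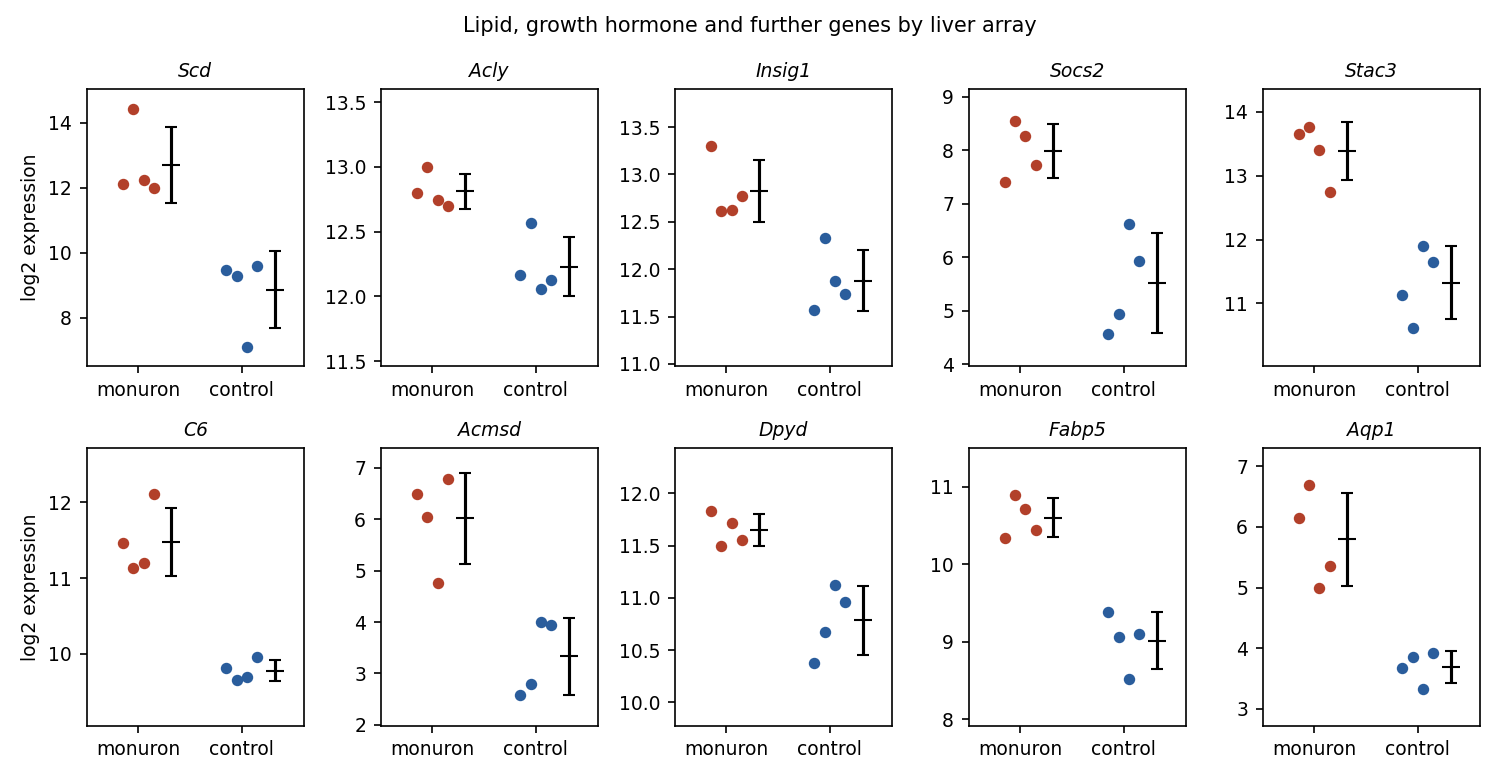
Log2 expression of 10 genes that were higher in livers labelled monuron, by liver array, monuron label on the left and control label on the right (n = 4 each). Points are arrays, and the bar beside them is the mean with 1 SD; axes differ between genes and do not start at 0. The 2 sets of arrays do not overlap in any of the 10 genes, and in Scd replicate 2 of the livers labelled monuron lies apart at 14.43. These genes too were chosen from the called genes, of which 291 of 292 did not overlap.

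Transporters of bile acids and organic ions moved in both directions. Slco1a1 and Slc22a8, uptake carriers for organic anions, and Abcb11, the bile salt export pump, rose. Slco1a1 averaged 11.80 ± 0.08 in livers labelled monuron and 11.34 ± 0.14 in livers labelled control (adjusted p = 0.0285, limma). Abcb11 averaged 13.13 ± 0.17 in livers labelled monuron and 12.66 ± 0.13 in livers labelled control (adjusted p = 0.0404, limma). Slc22a8 averaged 11.97 ± 0.14 in livers labelled monuron and 11.35 ± 0.16 in livers labelled control (adjusted p = 0.0228, limma). It is also 1 of 14 kidney markers, whose summed level was 11.91 to 12.20 in livers labelled monuron and 11.22 to 11.58 in livers labelled control. Slc22a8 itself, at 11.82 to 12.14 and 11.11 to 11.47, made up most of that sum. Of the 14, 2 were above the array's median throughout, Slc22a8 and Lrp2. Lrp2 overlapped, at 5.76 to 7.19 in livers labelled monuron and 6.48 to 7.00 in livers labelled control. Slc22a5, the carnitine carrier, fell, with 6.64 ± 0.73 in livers labelled monuron and 8.05 ± 0.15 in livers labelled control (adjusted p = 0.0488, limma), as did Slc22a18, by 0.44. In all, 3 of 20 tested transporters rose and 2 fell (25.0% called, against 3.12% of all genes tested). None was called without replicate 1 or 3 of the livers labelled monuron or replicates 1, 2 or 4 of the livers labelled control. Of 24 tested bile acid genes, Slco1a1 and Abcb11 rose and Nr5a2, a nuclear receptor of bile acid synthesis, fell by 0.47 (12.5% called). None of the 24 was called without those same arrays. Cyp7a1, the rate-limiting enzyme of bile acid synthesis, averaged 11.95 ± 0.41 in livers labelled monuron and 12.15 ± 0.53 in livers labelled control (adjusted p = 0.683, limma).

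Among plasma protein genes, 1 of 43 tested complement and coagulation genes was called (2.33%, against 3.12% of all genes tested). C6, a component of the membrane attack complex, had levels of 11.46, 11.13, 11.20 and 12.11 in livers labelled monuron, against 9.81, 9.65, 9.70 and 9.96 in livers labelled control. The groups lay more than 1 log2 unit apart, and the difference was 1.70 ± 0.20 (adjusted p = 0.00868, limma). Of 62 tested genes of the urea cycle and amino acid breakdown, 3 rose and 1 fell (median 0.01). The share called was 6.45%, against 3.12% of all genes tested. Acmsd, which directs tryptophan breakdown away from NAD synthesis, had levels of 6.48, 6.04, 4.76 and 6.78 in livers labelled monuron, against 2.58, 2.79, 4.00 and 3.94 in livers labelled control. Of the livers labelled control, 2 lay below the array's median (difference 2.69 ± 0.48, adjusted p = 0.0285, limma). Dpyd, which degrades pyrimidines, had levels of 11.83, 11.50, 11.72 and 11.55 in livers labelled monuron, against 10.38, 10.68, 11.12 and 10.96 in livers labelled control (adjusted p = 0.0285, limma). Mmut, methylmalonyl-CoA mutase, rose by 0.49 and Amt, of glycine cleavage, fell by 0.44. None of these 62 genes was called without replicate 1 of either group or replicate 2 of the livers labelled control. C6 stayed called without any 1 array.

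Several genes outside the lists had large differences. Aqp1, a water channel, had levels of 6.15, 6.69, 5.00 and 5.35 in livers labelled monuron, against 3.68, 3.85, 3.32 and 3.92 in livers labelled control (adjusted p = 0.0228, limma). Fabp5, a fatty acid binding protein, had levels of 10.34, 10.90, 10.72 and 10.45 in livers labelled monuron, against 9.38, 9.06, 8.51 and 9.10 in livers labelled control (difference 1.59 ± 0.19, adjusted p = 0.00868, limma). Tmem163, a zinc transporter, averaged 6.14 ± 0.20 in livers labelled monuron and 4.52 ± 0.36 in livers labelled control. Anxa1, annexin A1, averaged 8.21 ± 0.35 in livers labelled monuron and 7.07 ± 0.34 in livers labelled control. These genes were higher on every array labelled monuron.

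Pcp4l1 had levels of 5.01, 5.43, 7.63 and 6.94 in livers labelled monuron, against 9.26, 9.31, 9.48 and 9.24 in livers labelled control (difference -3.07 ± 0.51, adjusted p = 0.0228, limma). The livers labelled control agreed within 0.3, while those labelled monuron were spread out below them. Nceh1, a cholesteryl ester hydrolase, averaged 6.16 ± 0.69 in livers labelled monuron and 8.30 ± 0.56 in livers labelled control. Fuom, fucose mutarotase, averaged 3.90 ± 1.05 in livers labelled monuron and 6.01 ± 0.34 in livers labelled control. Rab30, a Golgi GTPase, averaged 6.03 ± 0.77 in livers labelled monuron and 8.03 ± 0.67 in livers labelled control. Of the 8 fits without 1 array, Nceh1, Fuom, Rab30 and Anxa1 lost their call in 6 and Pcp4l1 and Aqp1 in 4, while Fabp5 and Tmem163 kept theirs in all.

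Further groups had few calls. The proteasome subunit genes Psmc3, Psmd2 and Psmc2 fell among 37 tested (8.11%, against 2.02% of all genes tested), by 0.37, 0.33 and 0.32. In Psmc3, an ATPase of the regulatory particle, the levels were 11.59, 11.58, 11.54 and 11.59 in livers labelled monuron, against 11.92, 11.88, 11.98 and 11.98 in livers labelled control. No proteasome gene was called without monuron replicate 1 or 3 or control replicate 1 or 4, and 1 was called without replicate 2 of either group. Of 32 tested ATF4 and amino acid response genes, 2 (6.25%) fell (median -0.26). They were Atf5, a stress-response transcription factor, by 0.49 (adjusted p = 0.0136, limma), and Slc7a5, an amino acid carrier, by 1.57 (adjusted p = 0.0396, limma). All 4 arrays labelled monuron had Slc7a5 below the array's median, and limited at that median its adjusted p was 0.15. Nr3c1, the glucocorticoid receptor, rose by 0.63 ± 0.10 (adjusted p = 0.0228, limma). It was the 1 gene called of 32 tested in gluconeogenesis and the glucocorticoid response (3.12%, the same share as over all genes tested).

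Of 28 tested DNA replication genes, 1 rose and 2 fell (10.7% called, against 3.12% of all genes tested). Tk1, thymidine kinase, was among those that fell, with 7.44 ± 0.15 in livers labelled monuron and 8.08 ± 0.07 in livers labelled control. A second probe set of Tk1 gave a difference of -0.09, against -0.63 for the probe set used. Pfkl, liver phosphofructokinase, averaged 6.53 ± 0.38 in livers labelled monuron and 7.42 ± 0.15 in livers labelled control. It was 1 of 2 called (6.9%), both lower, of 29 tested glycolysis and hypoxia genes. Rig1 was the 1 interferon-stimulated gene of 27 tested that was called (3.7%). It averaged 10.75 ± 0.16 in livers labelled monuron and 10.13 ± 0.26 in livers labelled control. Of the genes named in these groups, only Atf5 kept its call in more than 4 of the 8 fits without 1 array. In each of 3 further lists 1 gene fell and none rose, of 16 heat shock (6.25%), 66 respiratory chain (1.52%) and 21 haem and globin genes (4.76%) tested. Of 28 tested ER chaperone genes 1 rose and 1 fell (7.14% called).

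No member was called by limma in 7 further lists. Over all genes tested, 2244 of 9361 had an unadjusted p below 0.05. At an unadjusted p below 0.05 there were 6 of 24 tested acute phase genes, 3 of 18 p53 targets, 1 of 17 mitosis genes, 2 of 18 clock genes, 4 of 20 immediate early genes, 5 of 38 cytosolic ribosomal protein genes and 7 of 26 collagen and matrix genes. The median differences of the immediate early, mitosis and clock lists were -0.45, -0.36 and -0.34, near that of the NRF2 list. Crp, C-reactive protein, averaged 14.62 ± 0.13 in livers labelled monuron and 14.15 ± 0.49 in livers labelled control. Cdkn1a, which encodes p21, averaged 4.23 ± 0.47 in livers labelled monuron and 4.97 ± 0.54 in livers labelled control (adjusted p = 0.191, limma). Mki67, a marker of dividing cells, averaged 4.90 ± 0.05 in livers labelled monuron and 5.26 ± 0.83 in livers labelled control (adjusted p = 0.572, limma). The clock output gene Dbp averaged 10.01 ± 0.70 in livers labelled monuron and 10.35 ± 0.52 in livers labelled control. Per2, a clock repressor, averaged 8.59 ± 0.63 in livers labelled monuron and 9.26 ± 0.10 in livers labelled control.

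Markers of some non-parenchymal cells had summed levels that did not overlap between the groups. In whole liver, fewer cells of a type and less RNA per cell cannot be told apart. The summed log2 level of 11 Kupffer cell and macrophage markers was 13.83 to 14.02 in livers labelled monuron and 13.52 to 13.77 in livers labelled control. All 11 differences were above 0 and none was called by limma. An unadjusted p below 0.05 was found for 5, against 2244 of all 9361 genes tested. The 10 endothelial markers summed to 13.10 to 13.48 in livers labelled monuron and 12.84 to 13.04 in livers labelled control. Of these 10 markers 5 differences were above 0 and 5 below, with a median of 0.01, and 1 was called. That was Lyve1, a sinusoidal receptor, at 11.43 ± 0.09 in livers labelled monuron and 10.97 ± 0.13 in livers labelled control (adjusted p = 0.0306, limma). The 13 lymphocyte markers summed to 8.08 to 8.55 in livers labelled monuron and 7.58 to 8.02 in livers labelled control. Only 4 of them were above the array's median on all arrays of either group. Of these 4 only Ptprc, the highest, did not overlap, at 7.26 to 7.87 in livers labelled monuron and 6.45 to 7.18 in livers labelled control. Cd3e, Cd8a and Prf1 overlapped between the groups, and none of the 4 was called. The summed level therefore does not show a difference across the lymphocyte markers. Stellate cell markers (12.30 to 12.67 and 12.36 to 12.53), cholangiocyte markers (9.09 to 9.48 and 9.12 to 9.71), neutrophil markers (6.58 to 7.95 and 6.41 to 6.82), erythroid markers (14.52 to 14.88 and 14.68 to 15.03), pancreas markers (12.08 to 12.73 and 12.35 to 12.59), adipose markers (10.47 to 11.07 and 10.57 to 11.27), pericentral hepatocyte markers (16.51 to 16.70 and 16.62 to 16.85) and periportal hepatocyte markers (16.98 to 17.21 and 16.99 to 17.23) overlapped, each given with livers labelled monuron before those labelled control. The part of these cells in the differences of Anxa1, Aqp1 and other genes was not tested.

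The called genes also differed in genomic span, which no step of the choice used. Of 2300 genes tested that span under 10 kb in GRCr8, 12 (0.522%) were higher and 73 (3.17%) lower in livers labelled monuron. Of 192 genes over 300 kb, 12 (6.25%) were higher and 2 (1.04%) lower. Over all genes tested 1.1% were higher and 2.02% lower. The median difference was -0.11 under 10 kb, -0.10 from 10 to 30 kb, -0.05 from 30 to 100 kb, 0.01 from 100 to 300 kb and 0.15 over 300 kb. In the kidneys of the joint fit of both organs, the median difference was -0.11 in the shortest and 0.20 in the longest bin. Spearman's rho between span and the liver difference was 0.16 across 9348 genes, which share the same 8 arrays, and it is given as a description. It was 0.16, 0.21 and 0.17 in the low, middle and high tercile of genes by mean level. Among the longest genes that rose, named here after their values were seen, were Fhit, a tumour suppressor at a fragile site, Pde4d, a cAMP phosphodiesterase, and Dpyd. Wwox, an oxidoreductase at another fragile site, averaged 5.17 ± 0.28 in livers labelled monuron and 3.90 ± 0.50 in livers labelled control over a span of 931 kb. Pde4d averaged 8.44 ± 0.32 in livers labelled monuron and 7.33 ± 0.15 in livers labelled control. Fhit averaged 3.97 ± 0.14 in livers labelled monuron and 2.86 ± 0.12 in livers labelled control. All 4 control values of Fhit were below the array's median, and limited at that median its adjusted p was 0.168. Of the 8 fits without 1 array, Wwox lost its call in 7, Dpyd in 5 and Pde4d in 3, while Fhit kept its call in all. Further probe sets of Wwox gave differences of 0.10 and 0.01, and those of Pde4d 0.05 and 0.02. None of these further probe sets was above the array's median on any array.

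The ratio of 3′ to 5′ probe sets, a measure of RNA length, was available for 3 transcripts. The log2 3′ to 5′ difference was 3.10 to 3.89 in livers labelled monuron and 3.40 to 4.77 in livers labelled control for beta-actin, and 0.06 to 0.19 in livers labelled monuron and 0.12 to 0.58 in livers labelled control for GAPDH. For hexokinase it was -0.22 to 0.03 in livers labelled monuron and -0.05 to 0.03 in livers labelled control. Medians were 3.24 in livers labelled monuron and 4.02 in livers labelled control for beta-actin, and 0.11 and 0.29 for GAPDH. For hexokinase they were 0.02 in livers labelled monuron and -0.01 in livers labelled control. The ranges of the groups overlapped for all 3 transcripts, for GAPDH only through control replicate 3 at 0.12. The part of these values in the pattern was not tested.

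**Figure D5:**
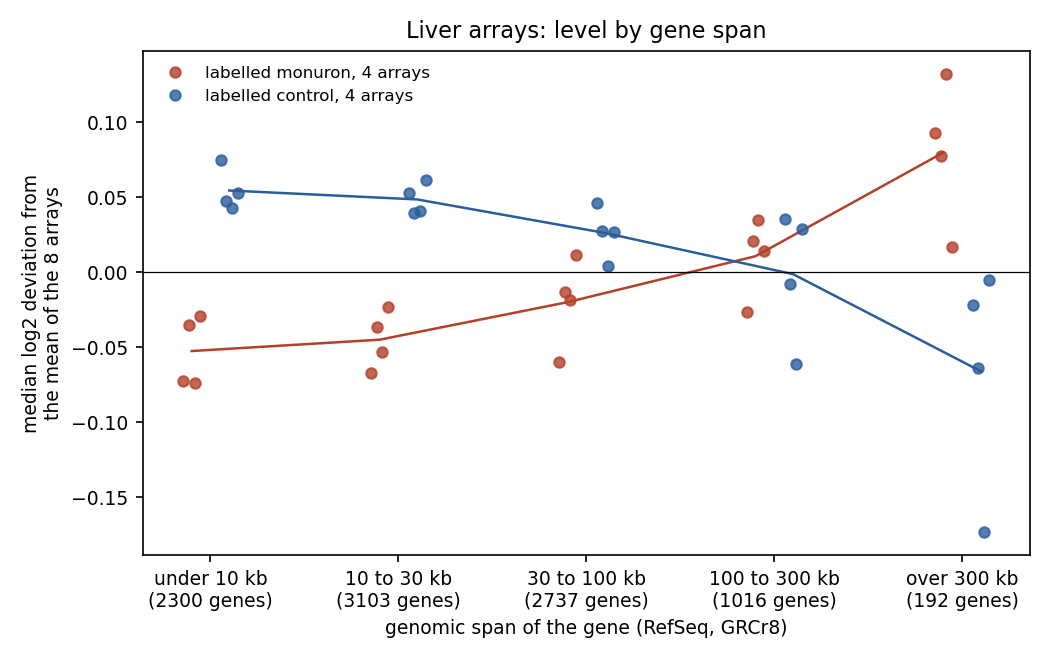
Median log2 deviation of genes from their mean over the 8 arrays, by genomic span, with 1 point per array (monuron label left of control label in each bin) and lines through the means of 4 arrays. In genes under 10 kb the arrays labelled monuron lie at -0.07 to -0.03 and those labelled control at 0.04 to 0.07. In genes over 300 kb the arrays labelled monuron lie at 0.02 to 0.13 and those labelled control at -0.17 to -0.01.

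The kidney arrays, labelled in the same way, were used to test which liver differences had another size in kidney. In a joint fit of the 16 organ arrays, 271 of 10114 genes (2.68%) had a liver difference that differed from the kidney difference (limma interaction term, adjusted p at or below 0.05), 110 upward (1.09%) and 161 downward (1.59%). In the same fit 800 genes (7.91%) were called in kidney, 323 higher (3.19%) and 477 lower (4.72%) in kidneys labelled monuron. The count of organ differences was 176 without liver control replicate 1, 501 without liver control replicate 3, 154 without kidney monuron replicate 3 and 158 without kidney control replicate 3. Aldh1a1 had a liver difference of -2.02 and a kidney difference of -0.15 (adjusted p of the difference between organs 4.52e-07). Gsta3 had -3.14 in liver and -1.22 in kidney, where it was also called lower (adjusted p = 0.00568, limma), and Akr7a3 had -2.15 in liver and -0.32 in kidney. Gclc ran in opposite directions, with -0.94 in liver and 0.32 in kidney, although the kidney difference did not pass. Cyp1a1, Crat, Nr1i3, Socs2, Stac3, Fabp5, Aqp1 and Pcp4l1 also differed between the organs, and each had a kidney difference within 0.2 of 0. Socs2, Stac3 and Pcp4l1 averaged under 3 in both groups of kidneys, so the kidney difference has little range.

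Like Gsta3, further antioxidant and detoxification genes were called lower in both organs, among them Nqo1, Srxn1, Gpx2, Ephx1, Gstm1 and Gstt3. Nqo1 had a difference of -1.59 in liver and -2.93 in kidney, and Srxn1 of -1.62 in liver and -3.49 in kidney. Gpx2 had -3.60 in liver and -1.97 in kidney, and Ephx1 had -0.78 in liver and -0.68 in kidney. Gstm1 had -0.63 in liver and -1.51 in kidney (kidney adjusted p = 0.0107, limma). Gstt3 had -0.68 in liver and -0.27 in kidney (kidney adjusted p = 0.0307, limma), and its interaction term passed (adjusted p = 0.0455, limma). For Nqo1, Srxn1, Gpx2, Ephx1 and Gstm1 the interaction term did not pass, which does not show that the organs responded alike. Dpyd rose in both organs, by 0.87 in liver and 2.83 in kidney, and the 2 values differed (adjusted p = 0.000151, limma). Slco1a1 likewise had 0.47 in liver and 2.32 in kidney. Abcc2, an export pump for conjugates, had 0.70 in liver (adjusted p = 0.0708, limma), and in kidney it fell by 2.63. Havcr1 had 0.01 in liver and -4.96 in kidney (adjusted p = 1.21e-05, limma).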

How the data were processed

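RNA was hybridised to 1-colour Affymetrix rat arrays. The deposited values are log2 expression made by the authors with GCRMA, per the submitters' processing notes; its version is not given in the sources used here. The table holds 31099 probe sets, of which 20826 have 1 gene symbol, 436 several and 9780 none (57 control probe sets left out). A gene was represented by 1 probe set, the brightest on average in liver, and was tested if above its array's median on at least 4 of 8 arrays. limma 3.58.1 (R 4.3.3) was fitted with lmFit and eBayes with a mean-variance trend, two-sided, with Benjamini-Hochberg adjustment over all genes and a threshold of 0.05. The fit was tested on simulated data. The number of arrays, 4 a group, limits precision. Named genes were the 12 largest called differences each way, up to 4 members of each of 32 gene lists with the smallest adjusted p, a fixed panel and 5 organ differences each way. Nr1i3, Slc22a5, Txnrd1, Gsta4, Nnmt, Adh1c, Akr1a1, Slc25a20, Decr1, Pex11a, Gstp1, Egfr, Fhit and Pde4d, and list members named without values, were added after their values were seen. The members and lists were chosen with earlier results of these data known. Symbols came from the array's annotation, updated through RefSeq, which also gave spans and promoters (GRCr8). Alternatives changed the filter, scaling, probe set rule, variance model and arrays. Same-numbered livers of the 2 groups did not deviate together (correlations -0.16 to 0.05), so the numbers were not used as pairs.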

Additional observations from a re-analysis of the deposited data

Results flagged for a closer look

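In 156 groups of 4 arrays checked over 78 named genes, 10 arrays lay far from the other 3 by Dixon's criterion, and chance gives about 5%. In livers labelled monuron these were Aldh1a1 at 10.79 (nearest other array 11.13), Gstm1 at 14.76 (14.51), Cyp1a2 at 13.93 (14.51), Scd at 14.43 (12.24), Cyp2c11 at 14.94 (15.2) and Psmc3 at 11.54 (11.58). In livers labelled control these were Slc25a20 at 11.24 (11.07), Scd at 7.11 (9.3), Fhit at 3.04 (2.8) and Fgf21 at 2.82 (6.91). Control replicate 3 held the lone value of Slc25a20, Scd and Fgf21.

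For 32 named genes the liver difference differed from the kidney difference (limma interaction term, adjusted p below 0.05), and the values here are liver difference minus kidney difference on the log2 scale. Among foreign-compound and antioxidant genes they were -4.55 for Cyp1a1, -1.92 for Gsta3, -1.83 for Akr7a3, -1.87 for Aldh1a1, -1.48 for Nr1i3, -1.26 for Gclc, -0.41 for Gstt3, -0.85 for Ugt2b1, -0.77 for Akr7a2 and 0.62 for Cyp2e1. Among lipid and carnitine genes they were -1.46 for Crat, -0.96 for Acot4, -0.72 for Ech1, -1.66 for Slc22a5, -1.98 for Nceh1 and 1.73 for Fabp5. Among growth hormone genes and receptors they were 2.5 for Socs2, 2.1 for Stac3 and 0.69 for Nr3c1. Among transporters and channels they were -1.85 for Slco1a1, 0.68 for Slc22a8, 3.32 for Abcc2, 2.08 for Aqp1 and 1.81 for Tmem163. The others were -3.11 for Pcp4l1, -2.22 for Fuom, -1.85 for Rab30, 1.3 for C6, -1.96 for Dpyd, 1.48 for Anxa1, -1.18 for Fhit and 4.97 for Havcr1. In kidneys labelled monuron and control, C6 averaged 2.48 and 2.09 and Rab30 2.57 and 2.72. As for Socs2, Stac3 and Pcp4l1, their kidney difference has little range. The same holds for the liver difference of Havcr1, which was at the low end in both groups of livers.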

How the results depend on the processing

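The number of genes called in liver (292) was 95 with no filter on dim probe sets, 191 with arrays centred on their medians, 117 with no mean-variance trend, 761 with array weights and 1160 with all 16 organ arrays in the fit. With the replicate number as a block it was 40; same-numbered livers did not deviate together, so the number gives no pairing. Without any 1 array it ranged from 37 to 508. A stricter filter (298), quantile scaling (247), the mean of probe sets (220) and values limited at the array's median (290) kept it within 1.5 times. In each of these alternatives of the liver comparison, leave-one-out fits included, more genes were lower than higher. The count of genes that differed between the organs (271) ranged from 154 to 501 without 1 array, was 384 with the replicate block and 210 with no mean-variance trend. Deviations of same-numbered liver and kidney arrays correlated at 0.02 to 0.16, above 0 in all 8 pairs but over 0.1 in only 4, a hint from the data and not from the labels. Cyp7a1 and Mki67, neither called, changed sign without replicate 1 and without replicate 4 of the livers labelled control. Without 1 array the Cyp7a1 liver difference ranged from -0.38 to 0.0077 and the Mki67 liver difference from -0.55 to 0.051. The causes were not tested. Of the genes named, Slc7a5 and Fhit lost their call with values limited at the array's median.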

Other observations

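Among the 29 genes called with all 8 arrays and without any 1 of them, several belong to none of the gene groups described above. Serpinb9, an inhibitor of granzyme B, had levels of 9.51, 9.49, 9.63 and 9.97 in livers labelled monuron, against 8.51, 8.38, 8.57 and 8.82 in livers labelled control (adjusted p = 0.00868, limma). Enpep, an aminopeptidase that cleaves angiotensin II, had levels of 11.22, 11.43, 11.51 and 11.46 in livers labelled monuron, against 10.64, 10.80, 10.82 and 10.70 in livers labelled control. Creg1, a lysosomal glycoprotein, had levels of 12.13, 12.27, 12.17 and 12.12 in livers labelled monuron, against 12.84, 12.83, 12.78 and 12.81 in livers labelled control (adjusted p = 0.00156, limma). Mif, a cytokine that hepatocytes also express, fell by 0.61, and Chchd10, a mitochondrial cristae protein, by 0.50. Ddah1, which degrades the nitric oxide synthase inhibitor dimethylarginine, fell by 0.63, and Slc17a3, an organic anion and urate carrier, by 0.71. In each of these 7 genes the 2 sets of livers did not overlap, which held for 291 of the 292 called genes. They were picked from the 29 after their values were seen.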
